A study of Mus musculus with 18 samples.

Results

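The WNT ligands, their Frizzled and LGR receptors and their secreted modulators were examined in a mouse mRNA sequencing study of embryonic stem (ES) cells and the feeder fibroblasts on which they are grown. Members were chosen by gene symbol: Wnt genes, Frizzled genes (Fzd), Sfrp1 to Sfrp5, Dkk1 to Dkk4, Rspo1 to Rspo4, Lgr4 to Lgr6, and the pathway genes Axin2, Lef1 and Tcf7. Frzb, the related gene with no Sfrp symbol in the mouse, falls outside the rule and is counted with other pathway genes. The rule found 47 of the 19630 genes in the deposited table. They comprised 19 WNT ligands, 10 Frizzled receptors, 8 secreted antagonists, 4 R-spondins, 3 R-spondin receptors and 3 nuclear or feedback genes. A filter on low counts kept 38 of the 47, each with a mean of at least 1 CPM (counts scaled to a common library total) in some group.

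WNT proteins are lipid-modified secreted ligands that bind a Frizzled receptor together with the co-receptors Lrp5 or Lrp6. In the canonical branch this binding spares beta-catenin from destruction, and beta-catenin then acts on target genes with the TCF and LEF factors. Other ligands, of which Wnt5a and Wnt11 are the usual examples, mostly signal without beta-catenin. R-spondins bind the LGR receptors and keep Frizzled proteins at the cell surface, whereas SFRP proteins bind WNTs and most DKK proteins block the co-receptor. In mouse ES cells canonical WNT signalling is known to favour self-renewal, and feeder fibroblasts are a source of WNT ligands and of their antagonists.

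The 18 libraries formed 6 groups of 3. Embryonic fibroblast feeders were sequenced alone, either control or labelled p53-defective, and ES cells were sequenced in co-culture with either. In another group the ES cells had been grown on control feeders and the feeders removed, and in the last ATN161, an inhibitor of integrin α5β1, took the place of the feeders. The labels give no strain, age, cell line, dose or time. They do not say how p53 was altered, nor how completely feeders were removed. Nothing states that the replicates came from separate cultures, so p-values reflect nothing beyond the variation among libraries, which may be technical. RNA of a co-culture comes from both cell types, so fewer cells of a type and less RNA per cell cannot be told apart.

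Library totals ran from 15122721 to 19833404 counts, so that 1 count stood for 0.0504 to 0.0661 CPM on these totals. The CPM values given below are also TMM-scaled, with factors from 0.84 to 1.09. Trp53, which encodes p53, was not lower in the feeders labelled p53-defective: its level there was 296 ± 44.9 CPM (SD, n = 3) against 119 ± 6.75 CPM in control feeders (log2 difference 1.31 ± 0.09 SE, adjusted p = 1.07e-11). In the co-culture on those feeders it was lower, at 153 against 293 CPM (-0.94), and the p53 target Cdkn1a was lower in the feeders, at 260 against 664 CPM (-1.35, adjusted p = 4.60e-10). Between the co-cultures Cdkn1a was not called, at 835 against 931 CPM (-0.16, adjusted p = 0.205). Among replicate pairs of all groups the chi-square per degree of freedom ranged from 1.94 to 42.15. The most discordant pair was replicates 2 and 3 of the co-culture on p53-defective feeders, whose other pairs gave 10.84 and 13.93. Replicate 3 of the p53-defective feeders stood apart from replicates 1 and 2 (27.28 and 22.98, against 3.15 between those). It held the highest of the 3 values for 22 of the 38 tested members, against 40.1% of all genes tested. ES-cell markers (12 genes) summed to 3659 to 3821 CPM in the co-culture on control feeders and to 312 to 459 CPM in that on p53-defective feeders. Genes specific to ES cells (431 genes, at least 8-fold above both feeders) stood at 80.4% and 7.86% of their level in ES cells after feeder removal in the same co-cultures. Comparisons that involve this co-culture are between mixtures of unlike make-up.

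Members differed in level within each group, given here as TPM, which divides counts by transcript length and brings each library to the same total. In control feeders Dkk3, a secreted protein of the Dickkopf family, led with 221 ± 27.2 TPM (SD, n = 3). It was followed by the receptor genes Fzd2 at 112 ± 9.09 TPM and Lgr5 at 56.7 ± 9.42 TPM. In p53-defective feeders the ligand Wnt11 led with 60.6 ± 2.73 TPM, ahead of Fzd6 at 43.7 ± 1.6 TPM and Fzd7 at 39.3 ± 2.9 TPM. The leading members of ES cells after feeder removal were the WNT-binding antagonist Sfrp1 at 37.6 ± 1.57 TPM, Fzd5 at 34.9 ± 0.744 TPM and Lgr4 at 28.6 ± 2.36 TPM. With ATN161 the highest was Tcf7, a nuclear partner of beta-catenin, at 29.6 ± 0.806 TPM. The order was Dkk3 first in the co-culture on control feeders, at 30.1 ± 0.737 TPM, and Wnt11 first in that on p53-defective feeders, at 31.7 ± 3.3 TPM. The 9 members that were not tested stayed below 1 CPM in every group: Wnt1, Wnt3, Wnt3a, Wnt7a, Wnt8a, Wnt8b, Wnt9b, Dkk1 and Dkk4. The highest group mean among them was 0.58 CPM, for Wnt3 in the co-culture on control feeders. Among these low counts Wnt1 had 23 in the co-culture on p53-defective feeders and 1 in that on control feeders (ratio 28.9, exact 95% interval 4.69 to 1189, counting error only), an example chosen after its values were seen.

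**Figure D1:**
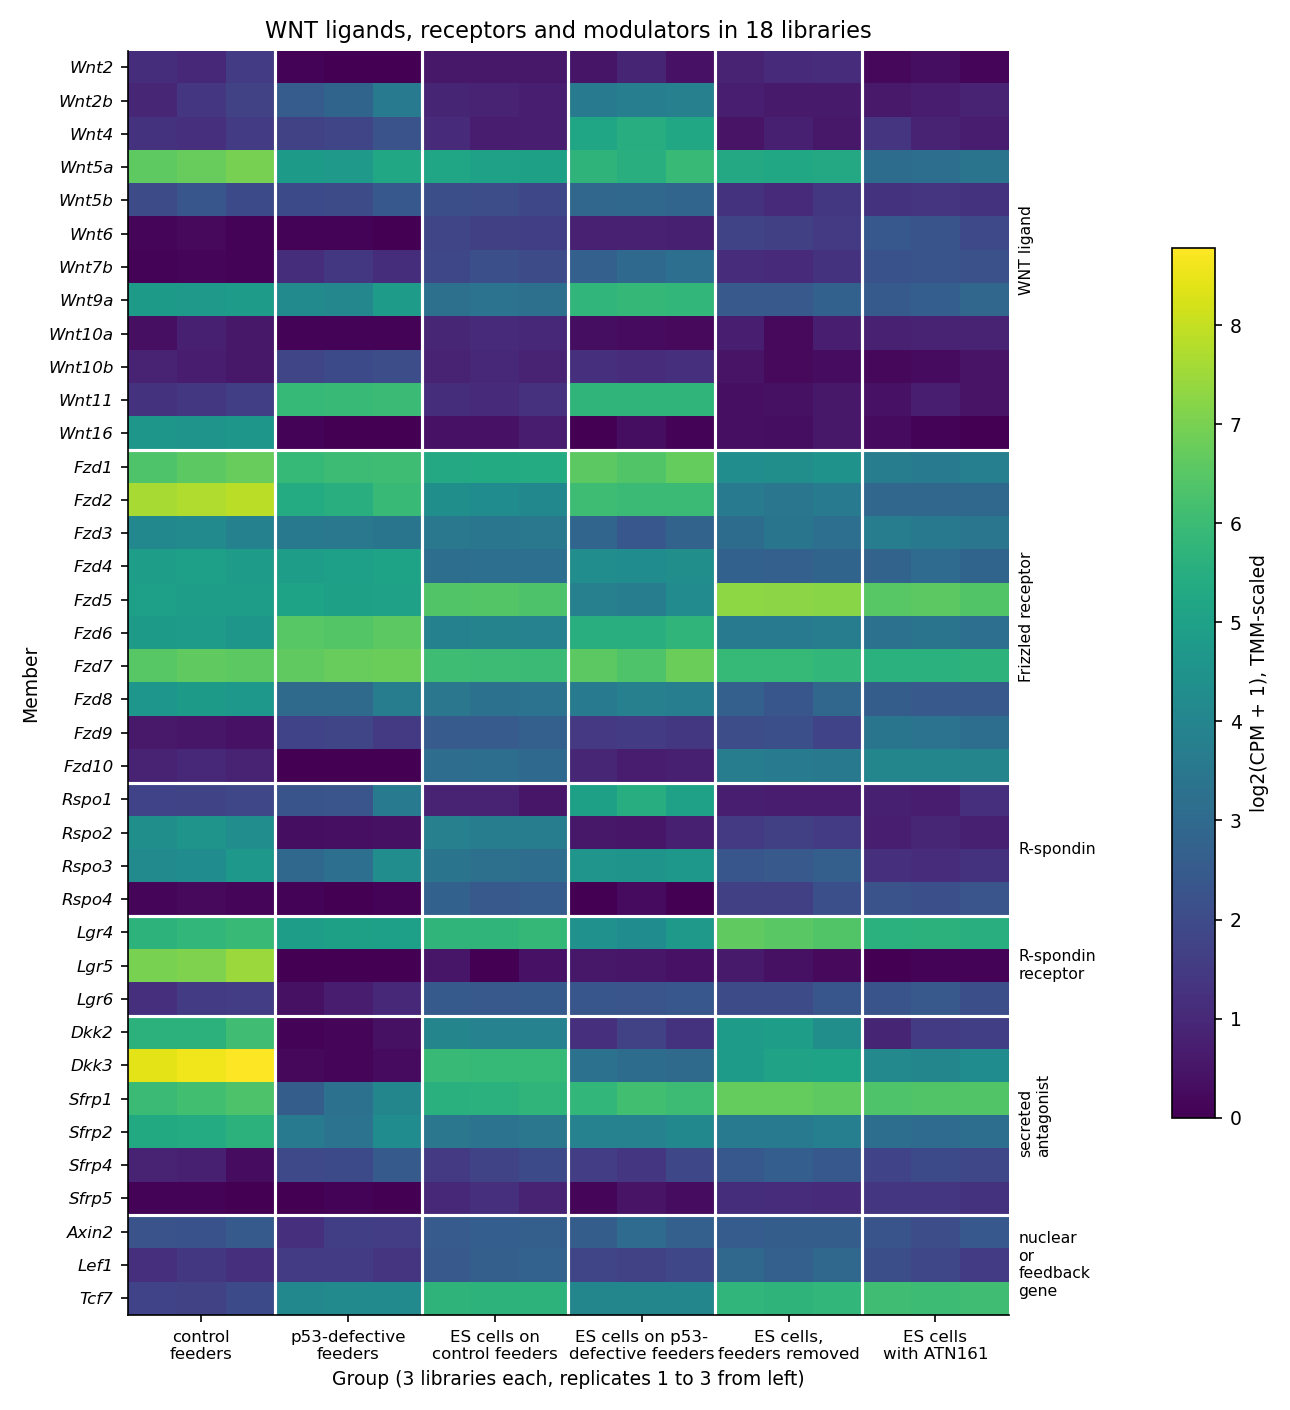
Level of the 38 tested members (rows, ordered by role) in the 18 libraries (columns, 3 per group), as log2 of TMM-scaled CPM plus 1. Dkk3, Fzd2 and Lgr5 are bright in control feeders, Wnt11 in both groups with p53-defective feeders, and Fzd5 in ES cells after feeder removal.

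Comparing ES cells after feeder removal with control feeders shows on which side each member was high. All changes below are log2 differences of TMM-scaled CPM with their SE, from edgeR's quasi-likelihood test with Benjamini-Hochberg adjustment over the 15389 genes tested, called at an adjusted p below 0.05. Of the 38 members 13 were higher in ES cells, where 45.1% of all genes tested were called higher, and 22 were lower, against 40.8% of all genes. The median member change was -1.14, and the median over all genes was 0.09. By role, 8 of 12 tested ligands, 7 of 10 Frizzled genes and 3 of 4 R-spondins were lower in ES cells.

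On the ES-cell side stood Tcf7, Fzd5 and Fzd10. Tcf7 read 53.9, 51.8 and 54.9 CPM after feeder removal and 2.43, 2.31 and 2.95 CPM in control feeders (4.38 ± 0.09, adjusted p = 3.24e-21). Fzd5, a receptor gene, read 154, 153 and 148 CPM against 30.2, 29.5 and 28.9 CPM (2.36 ± 0.09, adjusted p = 1.63e-16). Fzd10 read 12, 11.2 and 10.7 CPM against 0.849, 0.983 and 0.811 CPM (3.67 ± 0.15, adjusted p = 4.24e-15). Every ES-cell library lay above every feeder library for these 3 genes. Less abundant members on the same side were Lef1 (2.12), Rspo4 (4.21), Wnt6 (4.15), Wnt7b (3.89) and Sfrp4 (2.93).

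On the feeder side the widest gap was that of Lgr5, an R-spondin receptor known as a stem-cell marker in epithelia, with 127, 133 and 173 CPM in control feeders and 0.549, 0.32 and 0.162 CPM after feeder removal (-8.69 ± 0.25, adjusted p = 8.73e-18). Wnt16, a ligand gene, read 24.2, 22.1 and 24.3 CPM against 0.274, 0.267 and 0.487 CPM (-6.07 ± 0.26, adjusted p = 6.36e-16). Fzd2 read 198, 211 and 234 CPM against 11.3, 10 and 11 CPM (-4.31 ± 0.12, adjusted p = 2.63e-19). No library of either group came near the other for these genes, with any remaining feeder RNA counted in the levels after removal. Dkk3 (28.1, 32.7 and 32.9 against 342, 388 and 438 CPM, change -3.64), Rspo2 (1.81, 2.19 and 1.9 against 19.7, 22.5 and 18.9 CPM, -3.37) and Wnt9a (4.5, 4.49 and 5.69 against 26.7, 25.8 and 27.9 CPM, -2.45) followed, again with no overlap. Fzd4 read 5.54, 5.39 and 6.06 CPM against 29.5, 30.2 and 27.6 CPM (-2.36). For this gene 86.4% of counts lay on predicted transcripts, and on curated transcripts alone its change was -0.20 and was not called (adjusted p = 0.562).

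The feeders with and without the p53 label differed most, among members at 5 CPM or more, in Lgr5, Dkk3, Wnt16, Dkk2 and Rspo2, all lower with the label. Of the 38 tested members 10 were higher in p53-defective feeders, where 35.9% of all genes were called higher, and 20 were lower, against 38.4% of all genes. Calls in either direction were thus about as common among members as among all genes. The median member change was -0.79 and that of all genes -0.01. Lgr5 and Fzd10, at 0 counts in p53-defective feeders, lie below the member median at their bounds too. The lower members included secreted antagonists (4 of 6 tested), all 3 tested R-spondin receptors (Lgr6 turns higher on curated transcripts), 5 of 10 Frizzled genes and 2 of 4 R-spondins, whereas ligands were split, with 5 of 12 higher and 5 lower.

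Several members that were abundant in control feeders were nearly absent from p53-defective feeders. Lgr5 (Entrez 14160, chr10:115450314-115587780 in GRCm38.p6) fell from 127, 133 and 173 CPM to 0 counts in each of the 3 libraries. Taking 3 counts over the group as the floor, it was at least 2371-fold lower. Dkk3 (Entrez 50781, chr7:112116019-112159482) read 342, 388 and 438 CPM in control feeders and 0.127, 0.115 and 0.184 CPM in p53-defective feeders (-11.36 ± 0.18, adjusted p = 6.16e-23). No library of either group approached the other for these genes. Wnt16 (Entrez 93735, chr6:22288178-22298522) had 24.2, 22.1 and 24.3 CPM in control feeders and 1 count in all 3 p53-defective libraries together. Its count ratio was 1162, with a 95% exact interval from 208 to 45926 that covers counting error only. Dkk2 (Entrez 56811, chr3:132085266-132180304), an antagonist that binds Lrp6, read 48.3, 48.6 and 67.2 CPM against 0.0635, 0.115 and 0.307 CPM (-8.34 ± 0.33, adjusted p = 1.61e-15, and -9.13 without p53-defective replicate 3). Rspo2 (Entrez 239405, chr15:43020788-43171594) read 19.7, 22.5 and 18.9 CPM against 0.254, 0.289 and 0.307 CPM (-6.13 ± 0.19, adjusted p = 5.41e-18). These genes were at the bottom of the range in all p53-defective libraries.

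Other feeder antagonists and receptors fell less. Sfrp1 read 62.4, 68.7 and 79.8 CPM in control feeders and 5.01, 8.78 and 15.5 CPM in p53-defective feeders (-2.85 ± 0.22, adjusted p = 1.14e-09). All 3 p53-defective libraries lay below the control ones, and replicate 3 was the highest of them. Fzd2 read 198, 211 and 234 CPM against 40.9, 43.9 and 58.9 CPM (-2.16 ± 0.10, adjusted p = 1.29e-14). Wnt5a, the main beta-catenin-independent ligand, averaged 110 CPM in control and 29.8 CPM in p53-defective feeders (-1.88), Sfrp2 fell by 1.72, Fzd8 by 1.5, Axin2 by 1.14, Lgr4 by 0.88 and Rspo3 by 0.84 on the log2 scale. Fzd10 was at 0 counts in p53-defective feeders and at least 14.5-fold lower, and Wnt2 had 1 count there (ratio 69, interval 12 to 2763). Wnt9a was called lower (-0.42, adjusted p = 0.0115), but not without p53-defective replicate 1 or replicate 2 (adjusted p = 0.167 and 0.224). Lgr6 was called lower (-1.40) on all transcripts and higher (4.0) on curated transcripts, with 77.6% of its counts on predicted ones.

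Wnt11 (Entrez 22411, chr7:98835084-98854747) rose most. Its levels were 57.6, 60.3 and 62.3 CPM in p53-defective feeders and 1.41, 1.68 and 2.08 CPM in control feeders, a 34.7-fold difference (5.12 ± 0.12, adjusted p = 7.43e-20). On curated transcripts alone the change was 4.44 (adjusted p = 0.000183). Of its counts 93.4% lay on predicted transcripts, and 8.8% of its exon bases overlap an exon of Gm8398 on the other strand. Tcf7 read 16.3, 17.4 and 16.9 CPM against 2.43, 2.31 and 2.95 CPM (2.71 ± 0.10, adjusted p = 1.29e-16). Wnt2b, a ligand of the canonical branch, read 4.89, 6.12 and 11.5 CPM against 0.905, 1.62 and 2.32 CPM (2.22 ± 0.28, adjusted p = 1.94e-07). None of these groups overlapped. Fzd6 averaged 89.8 and 26 CPM (1.79), and the scarcer Wnt7b (4.05), Sfrp4 (2.54), Fzd9 (2.33) and Wnt10b (2.18) were higher too. Rspo1 was 1.31 higher, and 0.64 higher without p53-defective replicate 3 (adjusted p = 0.0152). Fzd4, Fzd5, Fzd7, Lef1, Rspo4, Sfrp5, Wnt5b and Wnt6 were not called.

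**Figure D2:**
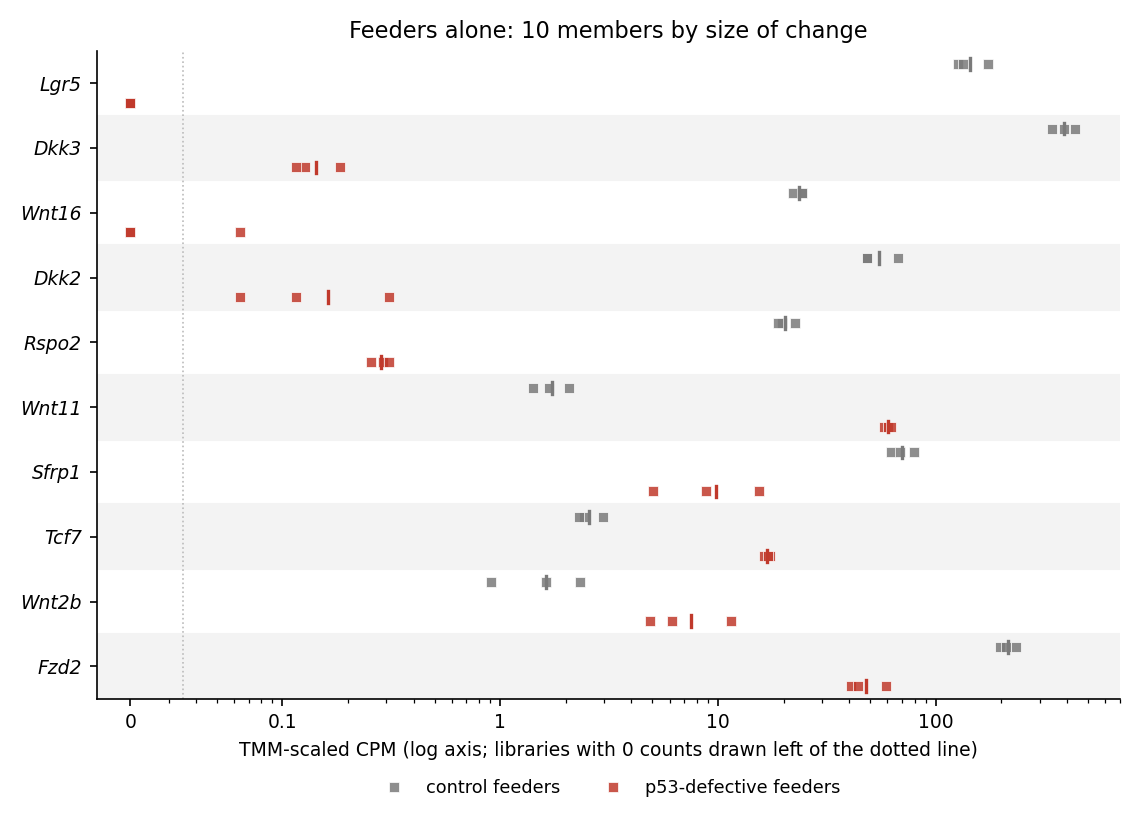
TMM-scaled CPM (log axis) of the 10 members with the largest called changes between control and p53-defective feeders, 1 point per library and a bar at the group mean. Lgr5, at 127 to 173 CPM in control feeders, has 0 counts in every p53-defective library, while Wnt11, Tcf7 and Wnt2b lie higher in p53-defective feeders.

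Among 71 other WNT pathway genes, 64 were tested, 14 were higher (35.9% of all genes) and 39 lower (38.4% of all genes) in p53-defective feeders. Wls, the carrier that brings WNTs to the cell surface, averaged 246 ± 6.44 CPM (SD, n = 3) against 723 ± 18.7 CPM in control feeders (-1.56 ± 0.07). The secreted WNT-binding protein Frzb (-4.14), the feedback gene Nkd2 (-3.35) and the glypican Gpc6 (-3.80) were lower. Myc, a target gene with many other inputs, was higher, at 302 against 44.9 CPM (2.75 ± 0.12). Marker genes of other cell types moved with the p53 label. Mesothelial markers (10 genes, 7 and 8 of them at 1 CPM or more in control and p53-defective feeders) summed to 56.8 to 64.3 CPM in control and 1300 to 1933 CPM in p53-defective feeders, and fibroblast markers (12 and 11 of 12) to 32635 to 39528 and 5209 to 7447 CPM. Macrophage markers (9 and 2 of 10) summed to 130 to 177 and 11.1 to 15 CPM, with Adgre1, Ptprc, Cx3cr1, C1qa and C1qb at 0 counts in the p53-defective feeders. Skeletal muscle markers (4 and 1 of 10) summed to 45.7 to 64.6 and 7.36 to 11.2 CPM, with Myog and Pax7 at 0 counts in control and Myod1, Myf5 and Ckm at 0 in p53-defective feeders. Primitive streak and mesendoderm markers (1 and 4 of 10) summed to 5.38 to 7.12 and 165 to 177 CPM. The part of these differences in the members' changes was not tested.

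The co-cultures were compared to ask how the p53 label of the feeders showed when ES cells were present. On p53-defective feeders 17 of the 38 members were higher than on control feeders, against 36.6% of all genes called higher, and 15 were lower, against 46.7% of all genes. The median change was 0.29 for members and -0.18 for all genes. Scaling on the 431 ES-specific genes instead moved the median of all genes to 3.20 and the members' split to 32 higher and 2 lower, where 13504 of the 15389 genes were higher and 409 lower, with Rspo2 (-1.13) and Rspo4 (-2.95) the ones still lower. This scaling shifts all genes nearly alike. The directions given next are therefore relative to total mRNA and not to ES-cell RNA.

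Ligands and R-spondins showed the largest increases. Rspo1 (Entrez 192199, chr4:124986401-125009102) read 30.4, 43.2 and 31.4 CPM on p53-defective and 0.786, 0.81 and 0.438 CPM on control feeders (5.68 ± 0.35, adjusted p = 1.43e-11). Wnt4 (Entrez 22417, chr4:137277635-137299501), a ligand known for its roles in kidney and gonad development, read 35.2, 43.5 and 37.4 CPM against 1.08, 0.619 and 0.681 CPM (5.6 ± 0.21, adjusted p = 1.76e-16). Wnt11 read 52.9, 52.7 and 52.5 CPM against 1.23, 1.05 and 1.36 CPM (5.44 ± 0.13, adjusted p = 8.78e-20, and 3.71 on curated transcripts). In each case the groups lay far apart. Wnt2b (Entrez 22414, chr3:104944805-104961709) read 11.6, 12.4 and 13.2 CPM against 0.884, 0.81 and 0.681 CPM (3.96 ± 0.29, adjusted p = 1.78e-11). Wnt9a (Entrez 216795, chr11:59306849-59333552) read 54.2, 56.7 and 54.8 CPM against 8.35, 9.24 and 8.51 CPM (2.67 ± 0.15, adjusted p = 1.74e-13). These 5 genes were called higher under TMM, DESeq2 factors, ES-cell scaling and library totals. By role, 8 of 12 tested ligands and 6 of 10 Frizzled genes were higher.

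The 15 lower members came from every role: 3 ligands (Wnt6, Wnt10a and Wnt16), 4 Frizzled genes (Fzd3, Fzd5, Fzd9 and Fzd10), Rspo2, Rspo4, Lgr4, 3 antagonists (Dkk2, Dkk3 and Sfrp5), Tcf7 and Lef1. Rspo2 read 0.485, 0.437 and 0.713 CPM on p53-defective and 13.2, 12.3 and 11.9 CPM on control feeders (-4.49 ± 0.18, adjusted p = 2.99e-16). Dkk2 read 1.33, 2.31 and 1.43 CPM against 15.1, 14 and 13.9 CPM (-3.08 ± 0.25, adjusted p = 1.91e-10). Dkk3 read 8.67, 7.61 and 7.25 CPM against 58.9, 57.8 and 57.6 CPM (-2.89 ± 0.11, adjusted p = 8.75e-17). All 3 genes were also lower in p53-defective feeders alone. Fzd10 read 0.91, 0.624 and 0.713 CPM against 7.81, 7.96 and 6.96 CPM (-3.32 ± 0.17, adjusted p = 1.39e-13), and Fzd5 read 13.1, 11.9 and 17.8 CPM against 83.5, 84.9 and 80.2 CPM (-2.54 ± 0.10, adjusted p = 3.20e-16). Both are genes of the ES-cell side, and under ES-cell scaling their changes turned to 0.05 and 0.85, as did those of Dkk2 (0.29) and Dkk3 (0.50). Under that scaling Fzd10 and Dkk2 were not called (adjusted p = 0.861 and 0.271). Tcf7 averaged 15.3 against 50.4 CPM (-1.72, and 1.67 under ES-cell scaling). Rspo4 had 3 counts in all libraries on p53-defective feeders and 5.65, 4.48 and 4.82 CPM on control feeders, a count ratio of 81.8 (interval 27.7 to 399). Axin2, Lgr5, Lgr6, Sfrp1, Sfrp4 and Wnt2 were not called.

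**Figure D3:**
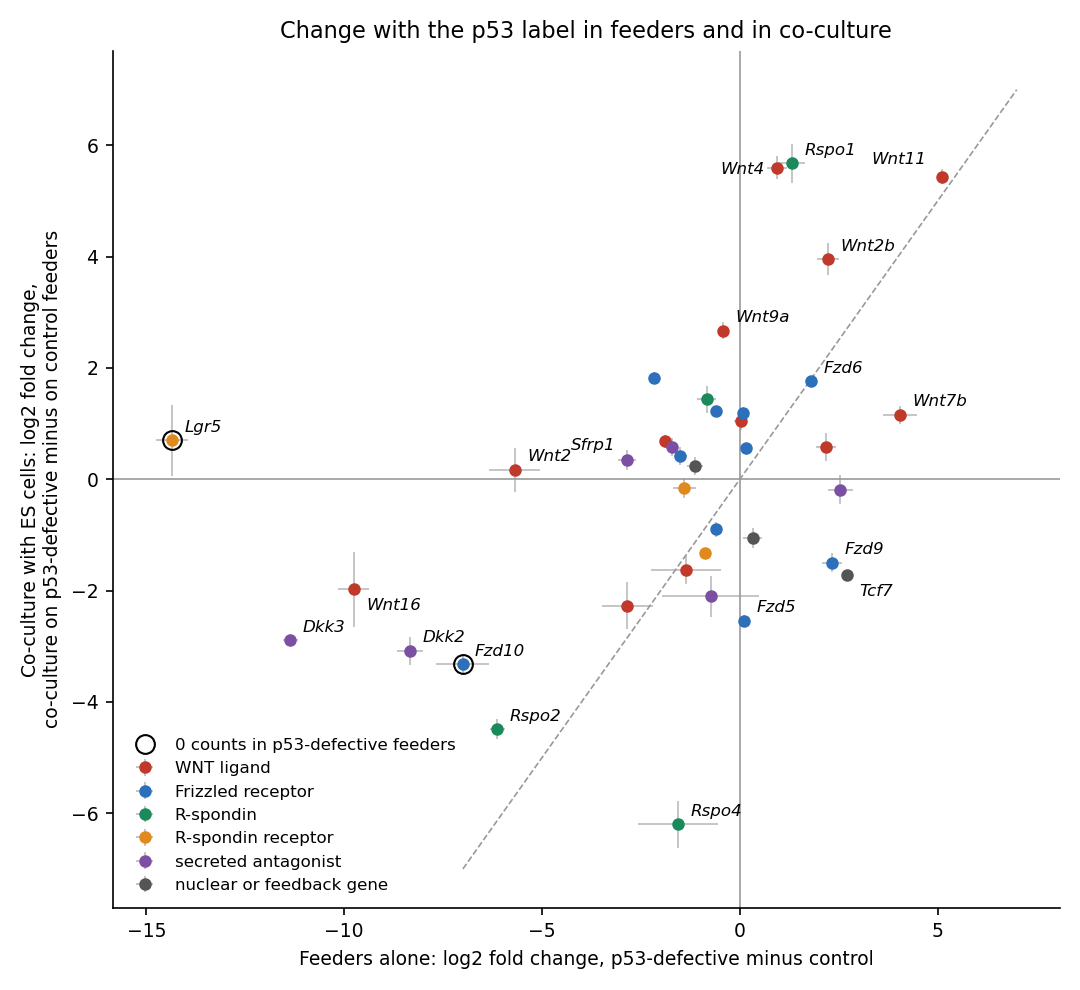
Log2 change with the p53 label in feeders alone (horizontal axis) and in co-culture with ES cells (vertical axis) for the 38 tested members, coloured by role, with SE bars and a dashed line where both changes are equal. Wnt11 and Fzd6 lie near the line, Wnt4 and Rspo1 far above it and Tcf7 and Fzd9 below it, while the ringed genes have 0 counts in p53-defective feeders, so that their horizontal position depends on the prior count.

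An interaction contrast was called for 32 of the 38 members, against 73.6% of all genes, a share not far from it. The 2 comparisons share no library. Wnt11 (5.12 in feeders, 5.44 in co-culture, difference 0.32 ± 0.22, adjusted p = 0.199) and Fzd6 (1.79 and 1.76, difference -0.03 ± 0.12, adjusted p = 0.847) were not called, and their differences lie within 2 SE of 0. Tcf7 rose in feeders (2.71) and fell in co-culture (-1.72), a difference of -4.43 ± 0.12 (adjusted p = 2.16e-18). The opposite held for Fzd2, with -2.16 and 1.82 (difference 3.98 ± 0.15, adjusted p = 3.52e-16). Wnt4 was 0.94 higher in feeders and 5.6 higher in co-culture, a difference of 4.65 ± 0.37 (adjusted p = 1.18e-10). The co-cultures differed in their content of ES-cell RNA by the shares given above, and the part of that in these differences was not tested.

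The members of the co-culture on p53-defective feeders were next read against those feeders alone and ES cells after feeder removal, called its constituents here. These ES cells had been grown on control feeders, so they only stand in for the ES-cell part of this co-culture. Of the 38 members 11 were called above both (25.0% of all genes) and 4 below both (21.1% of all genes). Against the feeders alone, 21 members were higher (46.7% of all genes) and 8 lower (33.0% of all genes, and 4 members on curated transcripts alone, where Fzd4 turns), with a member median of 0.85 and 0.27 over all genes. Scaling on library totals in place of TMM moved the median of all genes to 0.00, the split to 18 higher and 11 lower, and the members above both from 11 to 7 (18.3% of all genes), with 6 below both (27.5%).

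Wnt4 stood furthest above its constituents. It read 35.2, 43.5 and 37.4 CPM in the co-culture, 2.35, 2.6 and 3.8 CPM in p53-defective feeders and 0.384, 0.694 and 0.487 CPM in ES cells after feeder removal. That was 13.2-fold above the feeders (3.73 ± 0.18, adjusted p = 2.97e-14) and 6.19 ± 0.23 above the ES cells (adjusted p = 7.45e-17). Rspo1 read 30.4, 43.2 and 31.4 CPM, against 3.81, 3.93 and 10.9 CPM and 0.658, 0.587 and 0.596 CPM. Its change against the feeders was 2.50 ± 0.26 (adjusted p = 4.70e-08), and 3.18 without feeder replicate 3, the highest of them. Wnt7b, a ligand of the canonical branch, read 5.46, 6.93 and 8.26 CPM against 1.21, 1.67 and 1.23 CPM in feeders (2.32 ± 0.19, adjusted p = 1.53e-10) and 1.15, 1.07 and 1.46 CPM in ES cells (2.48 ± 0.19). All co-culture libraries of these genes exceeded all libraries of either constituent.

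Wnt9a read 54.2, 56.7 and 54.8 CPM against 16.8, 15.8 and 27.5 CPM in feeders (1.47 ± 0.14, adjusted p = 2.36e-09) and 4.5, 4.49 and 5.69 CPM in ES cells (3.50 ± 0.16). Rspo3 read 22.7, 22.5 and 24.8 CPM against 6.73, 8.32 and 18.8 CPM (1.05 ± 0.24, adjusted p = 0.000657) and 4.12, 4.43 and 5.25 CPM (2.34 ± 0.27). In CPM neither overlapped its constituents, although feeder replicate 3 lay nearer the co-culture than the others. In TPM the gap for Rspo3 was small beside the feeder spread, at 11.2 ± 1.7 in the co-culture and 9.15 ± 5.51 in the feeders (SD, n = 3). Wnt5b (0.91 against feeders) and Fzd1 (0.59) were called above both under library totals too, at 0.63 and 0.32. For Wnt5b the TPM means lay close, at 3.13 ± 0.231 in the co-culture and 2.81 ± 0.659 in the feeders. Wnt2b (0.72), Wnt5a (0.80 against feeders and 0.45 against ES cells), Fzd8 (0.50) and Fzd2 (0.41) were called above both with TMM scaling. On library totals they were no longer called against feeders (Wnt2b 0.45, Fzd8 0.22 and Fzd2 0.14) or against ES cells (Wnt5a 0.19). In the deposited TPM the co-culture did not lie above the feeders for Fzd1 (23.1 and 25.6 TPM), Fzd2 (19.2 and 24.4), Fzd8 (4.07 and 4.87) or Wnt2b (3.8 and 3.89), nor above ES cells for Wnt5a (10.6 and 11.7), so for these the direction depends on the measure. Fzd5 lay below both, at 13.1, 11.9 and 17.8 CPM against 33.4, 30.6 and 31.6 CPM in feeders (-1.16 ± 0.10, adjusted p = 6.44e-10) and 148 to 154 CPM in ES cells. So did Fzd3, Lgr4 and Sfrp4, and Sfrp4 was not called against feeders without feeder replicate 3 (adjusted p = 0.115) or co-culture replicate 2 (adjusted p = 0.0648).

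**Figure D4:**
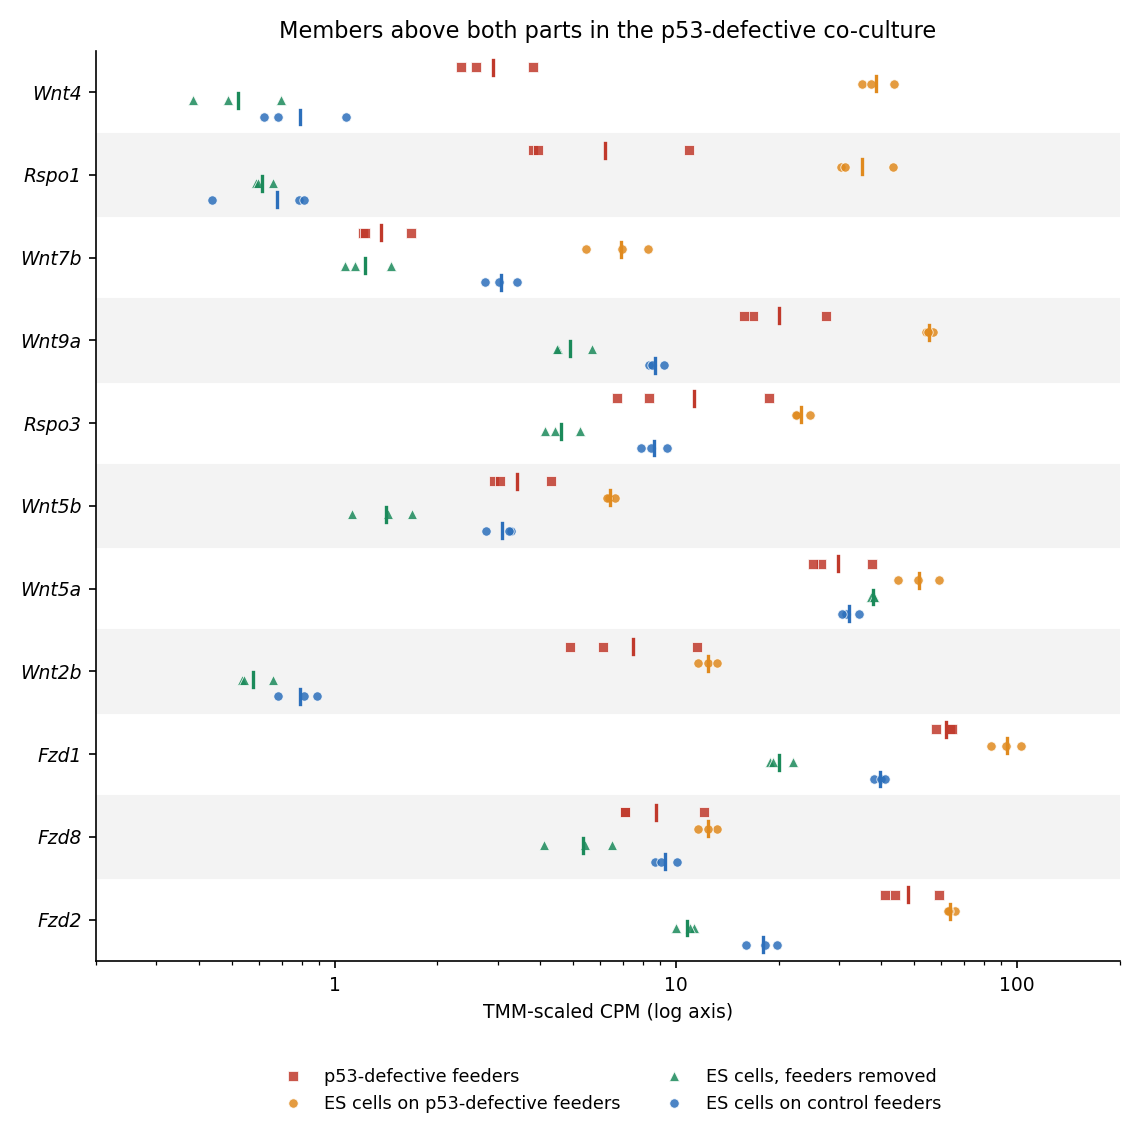
TMM-scaled CPM (log axis) of the 11 members called above both p53-defective feeders and ES cells after feeder removal, with the co-culture on control feeders for comparison, 1 point per library and a bar at the mean. Wnt4 and Rspo1 lie at 30.4 to 43.5 CPM in the co-culture on p53-defective feeders, clear of all other groups, while Fzd8 overlaps the feeders, Wnt2b, Wnt5a, Fzd8 and Fzd2 lose the call on library totals, and Fzd1 is not higher in TPM.

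Members that were called higher than the feeders but not above the ES cells included antagonists and Axin2, a feedback gene often read as a gauge of canonical signalling. Sfrp1 read 55.1, 68.3 and 63.1 CPM in the co-culture and 5.01, 8.78 and 15.5 CPM in the feeders (2.67 ± 0.22, adjusted p = 2.68e-09), below the 96.5 to 104 CPM of ES cells. Axin2 read 4.97, 7.49 and 5.41 CPM against 1.33, 2.08 and 2.02 CPM (1.70 ± 0.19, adjusted p = 3.09e-08), and 4.94, 5.02 and 5.04 CPM in ES cells. With ATN161 cultures as the ES part Axin2 was called above both (0.65 against them, adjusted p = 0.00101), as were Lgr5 and Wnt2. Its place thus depends on the ES cells compared. Dkk3 read 8.67, 7.61 and 7.25 CPM in the co-culture against 0.115 to 0.184 CPM in feeders (5.72 ± 0.27) and 28.1 to 32.9 CPM in ES cells. Lgr5 and Fzd10, at 0 counts in the feeders, were at least 7.01-fold and at least 12.3-fold higher. Of the 64 other pathway genes tested 30 were higher and 20 lower than in the feeders, shares close to the 46.7% and 33.0% of all genes. They included Porcn, which adds the lipid to WNT proteins, at 49.7 ± 4.4 against 6.34 ± 0.789 CPM (SD, n = 3), a change of 2.97 ± 0.11, and 10 of 12 tested other modulators were higher. Of the targets, Ccn5 was higher, at 31.8 against 0.931 CPM (5.08), and Myc (-1.59) and Ccn4 (-0.99) were lower.

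Several marker lists, though not all, were above both constituents in the same libraries. Fibroblast markers (12 of 12 at 1 CPM or more) summed to 16315 to 23341 CPM in the co-culture on p53-defective feeders, against 5209 to 7447 CPM in those feeders and 4202 to 4627 CPM in ES cells after feeder removal. Mesothelial markers (10 of 10) summed to 2100 to 2192 CPM, against 1300 to 1933 and 427 to 454 CPM. Skeletal muscle markers (3 of 10) summed to 75.7 to 91.7 CPM, with Myod1, Myog and Myf5 at 0 counts, against 7.36 to 11.2 CPM in the feeders. Macrophage markers (3 of 10) reached 39.6 to 43 CPM, against 11.1 to 15 and 11.4 to 12.9 CPM. Primitive streak and mesendoderm markers (4 of 10) were not above the feeders, at 156 to 167 against 165 to 177 CPM. The part of these lists in the members' levels was not tested.

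The stretches before the starts of 5 members are shown because these genes were among those that moved most: Wnt4, Rspo1 and Wnt9a above both constituents, and Wnt16 and Dkk2 nearly lost from p53-defective feeders. They come from RefSeq (GRCm38.p6, plus strand, 5′ to 3′), where 32 of the 47 members had a promoter entry. Each stops at the first annotated base of its gene, and capitals mark CpG dinucleotides.
Wnt4: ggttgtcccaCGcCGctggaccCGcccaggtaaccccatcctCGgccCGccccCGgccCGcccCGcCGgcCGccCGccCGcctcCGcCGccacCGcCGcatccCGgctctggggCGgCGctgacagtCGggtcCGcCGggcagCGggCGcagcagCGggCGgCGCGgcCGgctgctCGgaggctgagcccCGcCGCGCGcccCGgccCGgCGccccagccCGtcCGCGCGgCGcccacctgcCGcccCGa
Rspo1: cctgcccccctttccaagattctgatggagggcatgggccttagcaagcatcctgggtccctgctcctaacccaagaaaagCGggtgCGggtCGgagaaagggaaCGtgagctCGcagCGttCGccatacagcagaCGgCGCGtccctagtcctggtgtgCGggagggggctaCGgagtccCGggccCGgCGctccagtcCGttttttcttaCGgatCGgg
Wnt9a: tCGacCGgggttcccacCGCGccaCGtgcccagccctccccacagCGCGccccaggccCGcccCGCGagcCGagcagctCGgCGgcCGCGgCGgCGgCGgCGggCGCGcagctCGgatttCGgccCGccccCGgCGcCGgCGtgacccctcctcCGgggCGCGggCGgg
Wnt16: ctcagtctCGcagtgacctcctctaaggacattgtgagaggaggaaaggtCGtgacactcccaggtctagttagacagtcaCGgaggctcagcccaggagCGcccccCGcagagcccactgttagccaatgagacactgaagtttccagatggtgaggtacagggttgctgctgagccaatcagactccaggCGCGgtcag
Dkk2: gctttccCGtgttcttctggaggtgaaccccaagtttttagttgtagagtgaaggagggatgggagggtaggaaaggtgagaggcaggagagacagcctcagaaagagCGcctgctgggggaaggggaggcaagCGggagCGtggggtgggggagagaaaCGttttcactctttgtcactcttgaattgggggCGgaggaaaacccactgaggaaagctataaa
Wnt4 is shown at chr4:137277385-137277634, Rspo1 at chr4:124986180-124986400, Wnt9a at chr11:59306680-59306848, Wnt16 at chr6:22287977-22288177 and Dkk2 at chr3:132085042-132085265. Over the whole 250-base windows GC content was 85.2% for Wnt4, 66.8% for Rspo1 and 84.4% for Wnt9a, and 59.2% for Wnt16 and 55.6% for Dkk2, where the median of 32851 promoters was 52.4%. Wnt4 holds 44 CpG and Wnt9a 48, more than 99.5% and 99.8% of all promoters. Rspo1 holds 22, Wnt16 9 and Dkk2 7, against a median of 6. The 5 windows hold, on either strand, no TCF/LEF letters (CTTTGNT, in 16.0% of all promoters), no TEAD letters (CATTCC, 12.6%), no AP-1 letters (TGANTCA, 6.7%) and no p53 decamer (7.1%), which says only that those letters are not in these windows. The TCF/LEF letters were in 6 of the 39 promoter entries of members, and the p53 decamer in 1, that of Wnt11.

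After removal of the feeders from ES cells grown on control feeders, Rspo2 was the member that fell most. Of the 38 tested members, 7 were higher after removal (25.5% of all genes) and 16 lower (26.5% of all genes), against 10 lower on curated transcripts alone, and the median was -0.28 against -0.01 for all genes. Lower members included 6 of 12 tested ligands, 6 of 10 Frizzled genes (of which Fzd4 turns on curated transcripts) and 3 of 4 R-spondins. Rspo2 read 1.81, 2.19 and 1.9 CPM after removal and 13.2, 12.3 and 11.9 CPM in the co-culture (-2.66 ± 0.14, adjusted p = 9.49e-12). Sfrp1 read 104, 104 and 96.5 CPM against 47.1, 47.5 and 52.4 CPM (1.05 ± 0.18, adjusted p = 0.000121). Neither gene's groups overlapped. Fzd5 (0.87), Dkk2 (0.81) and Lgr4 (0.75) were higher and Wnt7b (-1.32) and Wnt5b (-1.14) lower. Axin2 (-0.01), Lef1 (0.27) and Tcf7 (0.09), the nuclear and feedback members, were not called. Of 12 other feedback and target genes tested, 5 were higher and 4 lower after removal. Those with the smallest p were Notum, at 51.7 ± 3 against 22.1 ± 1.8 CPM (1.22), Nkd2 (-1.03) and Apcdd1 (0.44). Fibroblast markers summed to 6604 to 6931 CPM before and 4202 to 4627 CPM after removal.

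Members high in feeders stood at unlike shares of their feeder level in the co-culture on control feeders. Of the 10 members at 5 CPM or more in control feeders and at least 4-fold above ES cells after feeder removal, Rspo2 stood highest, at 61.1% ± 3.26 (SD, n = 3) of its level in feeders alone, against 9.66% in ES cells after removal. For other members the level after removal was a large part of that in the co-culture. Rspo3 stood at 42.6% in co-culture and 22.8% after removal, Fzd1 at 42.1% and 21.3%, Fzd8 at 37.4% and 21.6%, Wnt9a at 32.5% and 18.2%, and Fzd4 at 28.2% and 19.5%. Dkk3 stood at 14.9% ± 0.18 and 8.02%, and Fzd2 at 8.43% and 5.05%. Wnt16 was at 1.79% ± 0.604 and Lgr5 at 0.181% ± 0.161, at the levels of ES cells after removal (1.46% and 0.239%). The 77 genes specific to both kinds of feeder stood at 9.65% ± 0.445 of their mean level in the feeders. In ES cells after removal these 77 genes stood at 6.2% ± 0.358. The mean is over both kinds of feeder, and control feeders alone stood at 91.6% of it, whereas the members' shares are of control feeders. Lgr5, Wnt16 and Fzd2, all abundant in control feeders alone, were under the 9.65% of the 77 genes, without a test of the difference. Rspo2, Rspo3, Fzd1, Fzd8, Wnt9a, Fzd4 and Dkk3 were above it. Unlike the 77 genes, Lgr5, Wnt16, Rspo2 and Dkk3 were nearly absent from p53-defective feeders, whereas Fzd2 averaged 47.9 CPM there. The Rspo2 level of the co-culture was 13.2, 12.3 and 11.9 CPM. Dkk2, at 15.1, 14 and 13.9 CPM, lay below both control feeders (48.3 to 67.2 CPM) and ES cells after removal (19 to 29.3 CPM).

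With ATN161 in place of feeders, 5 of the 38 members were higher than in the co-culture on control feeders (33.6% of all genes) and 20 lower (28.0% of all genes). The median was -0.40 for members and 0.07 for all genes. By role, 7 of 12 tested ligands and 6 of 10 Frizzled genes were lower. Rspo2 read 0.657, 0.912 and 0.727 CPM with ATN161 and 13.2, 12.3 and 11.9 CPM in the co-culture (-4.01 ± 0.16, adjusted p = 3.96e-15). Dkk2 read 0.859, 1.88 and 2.08 CPM against 15.1, 14 and 13.9 CPM (-3.16 ± 0.24, adjusted p = 4.36e-10). Rspo3 read 1.31, 1.17 and 1.45 CPM against 9.43, 8.48 and 7.88 CPM (-2.71 ± 0.35, adjusted p = 2.35e-06). None of these groups overlapped. Wnt5a read 7.58, 7.96 and 9.45 CPM against 34.4, 31.6 and 30.7 CPM (-1.95 ± 0.14, adjusted p = 1.12e-10), and Dkk3 read 16.6, 15.5 and 18.3 CPM against 58.9, 57.8 and 57.6 CPM (-1.79 ± 0.09, adjusted p = 4.04e-13). Fzd1 (12.1, 11.3 and 12.8 against 38.2, 39.8 and 41.1 CPM), Fzd2 (6.42, 6.49 and 6.6 against 19.8, 18.2 and 16.1 CPM) and Fzd8 (5, 4.41 and 4.47 against 10.1, 8.67 and 9.05 CPM) were lower by 1.72, 1.47 and 1.0 on the log2 scale.

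Fzd10 rose with ATN161, at 15.4, 15.4 and 15 CPM against 7.81, 7.96 and 6.96 CPM (1.01 ± 0.11, adjusted p = 7.74e-08). Fzd9 (0.84), Sfrp1 (0.76), Wnt6 (0.69) and Tcf7 (0.39) were the other members called higher. Axin2 was called lower (-0.40, adjusted p = 0.0375), but not without co-culture replicate 3 (adjusted p = 0.0543) or ATN161 replicate 1 (0.074) or 2 (0.167). Of 64 other pathway genes tested 34 were lower (28.0% of all genes) and 12 higher (33.6% of all genes). Among the lower ones were the targets Ccn4 (-2.22) and Cd44 (-2.22), and Wls (-1.77). Fibroblast markers summed to 986 to 1092 CPM with ATN161 and 6604 to 6931 CPM in the co-culture, and their part in the lower members was not tested.

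The ATN161 cultures also differed from ES cells after feeder removal, where 7 of the 38 members were higher (28.6% of all genes, and 4 members on curated transcripts alone) and 18 lower (26.8% of all genes), with medians of -0.22 for members and 0.03 for all genes. Dkk2 read 0.859, 1.88 and 2.08 CPM with ATN161 and 26.9, 29.3 and 19 CPM after removal (-3.96 ± 0.23, adjusted p = 1.27e-11). Wnt5a read 7.58, 7.96 and 9.45 CPM against 38.2, 37.4 and 38.1 CPM (-2.19 ± 0.14, adjusted p = 3.45e-11). These were the widest falls among members at 5 CPM or more, with no overlap. Lef1, the other TCF-family gene here, read 3.34, 2.69 and 1.92 CPM against 6.86, 5.39 and 6.61 CPM (-1.24 ± 0.17, adjusted p = 2.59e-06). Fzd9 went the other way, at 9.65, 9.07 and 8.1 CPM against 3.18, 3.42 and 2.44 CPM (1.57 ± 0.14, adjusted p = 7.98e-09), as did Wnt7b, at 3.59, 3.9 and 3.48 CPM against 1.15, 1.07 and 1.46 CPM (1.57 ± 0.20, adjusted p = 1.03e-06). The groups were apart for each of these genes. Axin2 was at the threshold (-0.40, adjusted p = 0.0479) and was not called without any 1 of the removal libraries, ATN161 replicate 1 or ATN161 replicate 2 (adjusted p from 0.0699 to 0.191). Of 12 tested feedback and target genes 7 were lower and 2 higher with ATN161. Those with the smallest p were Ccnd1, which encodes cyclin D1, at 61.5 ± 4.78 against 218 ± 16.2 CPM (-1.83), Cd44 at 34.1 against 123 CPM (-1.85) and Ccn4 at 3.88 against 21.8 CPM (-2.49). Fibroblast markers summed to 986 to 1092 CPM with ATN161 and 4202 to 4627 CPM after removal, and ES-cell markers to 6207 to 6461 and 4966 to 5151 CPM.

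**Figure D5:**
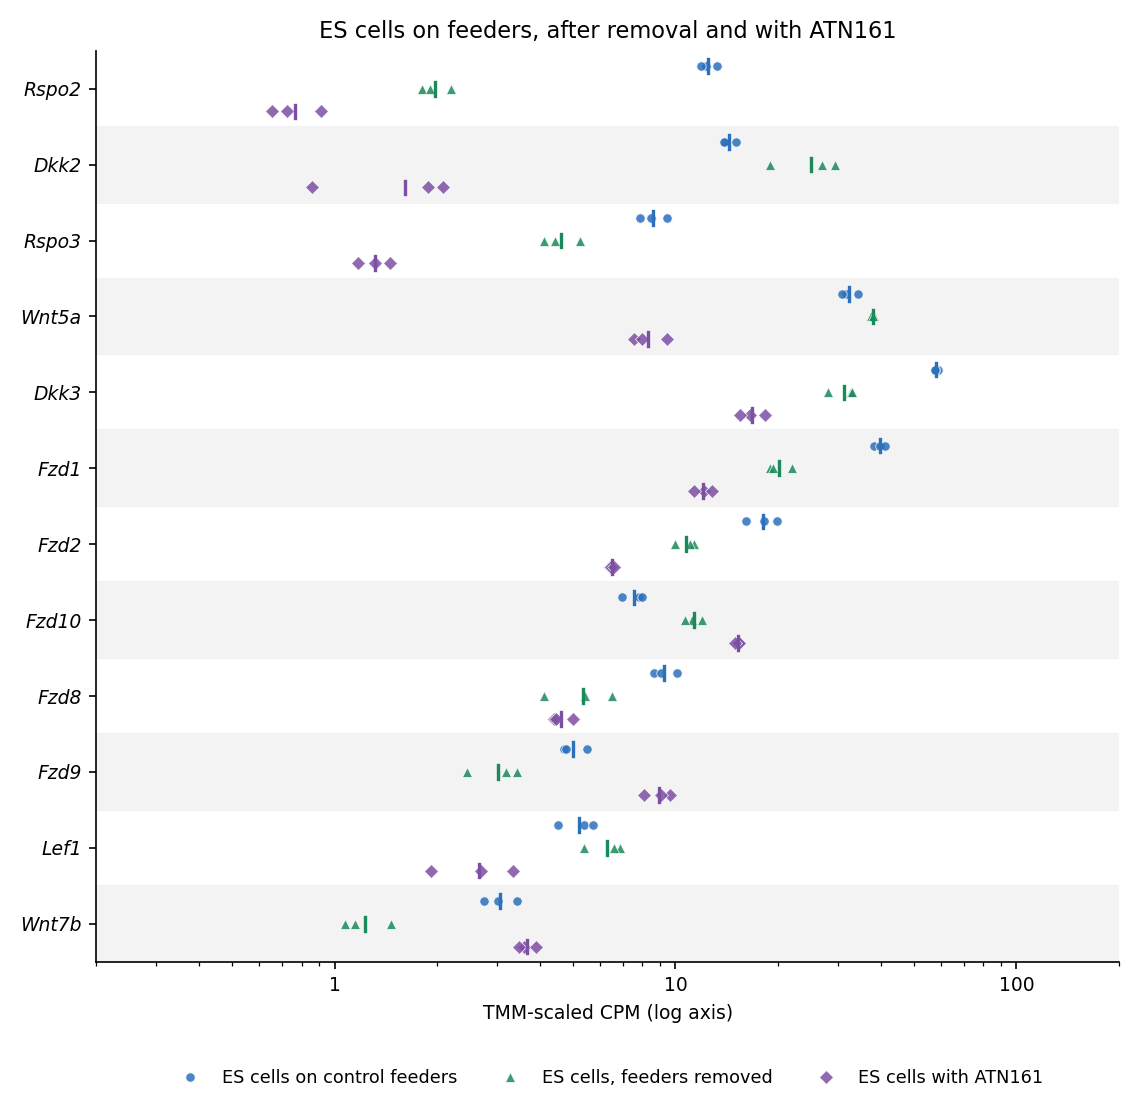
TMM-scaled CPM (log axis) of members in ES cells on control feeders, after feeder removal and with ATN161, 1 point per library and a bar at the mean. Rspo2 and Rspo3 step down from co-culture to removal to ATN161. Dkk2 and Wnt5a are also lowest with ATN161 but do not fall after removal, and Fzd9 and Wnt7b are lowest after removal.

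Some values carry limits of counting. The counts were made per transcript, and whether they used the strand of the RNA is not given in the sources used here. Of the members, 9 share exon bases with a gene on the other strand, over 10% of them for Fzd5 (17.8%), Sfrp2 (16.1%), Lef1 (13.7%) and Rspo3 (13.1%), so reads of those partners cannot be told apart from theirs.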

How the data were processed

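The authors deposited 1 table of RefSeq transcripts with estimated read counts, TPM and FPKM for the 18 libraries. Per the labels' protocols, Trizol was used for RNA and an Illumina TruSeq mRNA kit for the libraries. Per the submitters' processing notes StringTie 1.3.3b, HISAT2 2.1.0, DESeq2 1.2.10 and SAMtools 1.4 were used, in roles not stated, on mm10 and GRCm38. Of the deposited estimated counts, summed per gene, 89.3% were whole within 0.05. They were rounded. Groups were taken from the labels.

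Gene counts, the sums of their transcripts, were filtered with filterByExpr (15389 genes kept, 4241 removed) and fitted with edgeR 4.0.16 (R 4.3.3; quasi-likelihood, robust, TMM, all 18 libraries, 1 coefficient per group, no covariate). P-values are two-sided and adjusted by Benjamini-Hochberg over all genes tested. CPM values are TMM-scaled. The deposited TPM, already scaled by the authors, were summed per gene for levels between genes, and the deposited FPKM served to check their order. The code was tested on simulated data. Members with a group mean of at least 1 CPM are named, and library values are given for called members at 5 CPM or more and 2-fold change, at most 10 per comparison. Wnt7b with ATN161 was added after its values were seen. For up to 3 other WNT genes per list, those with the smallest p, values are given. The members and lists were chosen with earlier results of these data known. Symbols and promoters come from RefSeq GRCm38.p6 and exon overlaps from the GENCODE vM21 annotation. Alternatives were DESeq2 1.42.0, other scalings, filters and transcripts, a replicate block and leaving out each library. Same-numbered replicates deviated together with correlations from -0.07 to 0.22.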

Additional observations from a re-analysis of the deposited data

Results flagged for a closer look

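For 32 of the 38 tested members the change with the p53 label differed between co-culture and feeders alone by the edgeR interaction contrast, which called 73.6% of all genes. Each value is the co-culture log2 change minus the feeder log2 change. Among ligands it was 7.78 for Wnt16, 5.87 for Wnt2, 4.65 for Wnt4, 3.09 for Wnt9a, 2.56 for Wnt5a, 1.74 for Wnt2b, 1.03 for Wnt5b, -1.61 for Wnt10b and -2.89 for Wnt7b. Among Frizzled genes it was 3.98 for Fzd2, 3.69 for Fzd10, 1.92 for Fzd8, 1.84 for Fzd1, 1.10 for Fzd4, 0.41 for Fzd7, -2.65 for Fzd5 and -3.83 for Fzd9. R-spondins differed by 4.36 for Rspo1, 2.28 for Rspo3, 1.64 for Rspo2 and -4.63 for Rspo4, and their receptors by 15.06 for Lgr5, 1.25 for Lgr6 and -0.45 for Lgr4. For antagonists the values were 8.47 for Dkk3, 5.26 for Dkk2, 3.19 for Sfrp1, 2.29 for Sfrp2 and -2.73 for Sfrp4, and for nuclear and feedback genes 1.38 for Axin2, -1.39 for Lef1 and -4.43 for Tcf7. Wnt16, Wnt2, Fzd10, Rspo4 and Lgr5 have 3 counts or fewer in a compared group, so their sizes depend on the prior count and are no bounds.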

How the results depend on the processing

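Settings were changed 1 at a time, and 232 recounts of called members stayed within 1.5 times their value while 6 did not. Leaving out each library gave 10 to 11 members higher and 19 to 20 lower for the feeder comparison, 15 to 18 and 14 to 16 for the co-cultures, 6 to 7 and 16 to 18 for feeder removal, 5 and 17 to 22 for ATN161 against co-culture, 5 to 7 and 15 to 17 for ATN161 against removal, 13 to 15 and 22 for ES cells against control feeders, 22 to 23 and 6 to 7 for the co-culture against its feeders, and 31 to 32 for the interaction. Members above both constituents numbered 11 to 13 and below both 3 to 4. With ATN161 cultures as the ES part, chosen after seeing the data, they numbered 14 and 3. On library totals, also chosen after seeing the data, 7 were above both. Scaling the co-cultures on ES-specific genes gave 32 higher and 2 lower. It adds nearly the same amount to every gene, so that by construction it turned the sign of every member with a smaller fall: Fzd3 (2.49), Fzd5 (0.85), Fzd9 (1.88), Lef1 (2.32), Sfrp4 (3.19), Tcf7 (1.67), Wnt10a (1.07), Wnt6 (1.74), Dkk3 (0.50), Sfrp5 (1.24), Dkk2 (0.29), Wnt16 (1.31), Fzd10 (0.05), Lgr4 (2.06) and Lgr6 (3.23). Of these, Fzd10, Dkk2, Wnt16 and Wnt10a were not called under it (adjusted p = 0.861, 0.271, 0.141 and 0.0599). Sfrp4 and Lgr6 had not been called under TMM. Curated transcripts alone gave 10 members lower for feeder removal, 4 higher for ATN161 against removal and 4 lower for the co-culture against its feeders. They turned Lgr6 in feeders (4.0) and Fzd4 in feeder removal (0.49), ATN161 against co-culture (0.29) and co-culture against its feeders (0.41). The cause of the changes on curated transcripts was not tested. Of the single members' values 3540 kept direction and call, 99 lost a call, 74 gained one and 19 reversed.

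A replicate block gave 16 members higher in the co-culture comparison and 22 in that of the co-culture with its feeders, and moved no other count. The labels share only replicate numbers, and most of the correlations between same-numbered replicates were below 0.1. Depth limits the 9 untested members below 1 CPM and the fold of genes at 0 to 3 counts. With no filter on low counts, 13 members were higher and 20 lower in the feeder comparison.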
